A study of Mus musculus with 5 samples.

Results

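Unmethylated CpG-dense DNA was followed here in mouse CD8+ T cells, in the form of MspI restriction fragments that carry 10 to 19 CpGs and were largely free of methylation in the non-clonal population. Each deposited line is 1 DNA molecule of 1 numbered fragment, with a methylated, unmethylated or missing call at each CpG, and the level of a fragment is the share of methylated calls among all its calls. A fragment was included when it had at least 10 molecules with a call in each clone, at least 5 on the odd-numbered and 5 on the even-numbered lines of the population file, and a level under 20% on the odd lines. This gave 17146 fragments, out of 24225 fragments with 10 to 19 CpGs and 160499 fragments of any CpG number that met the same molecule minimums. The odd lines chose the fragments, so every population value below comes from the even lines, which did not. The deposited files carry no coordinates, gene names or sequences, and fragments are named by their number.

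Naive T cells from C57BL/6 spleens were kept in culture with IL2 and sorted as CD8+ cells, and single founder cells were grown into clones. Antibodies against CD3 and CD28 were also used. The 5 samples were 1 sample of the non-clonal population, with no number of divisions given, and 2 replicates from each of clones 1 and 2, at 15 cell divisions. Both replicates of a clone were deposited in a single file without a mark that separates them. So 3 libraries were compared, each clone stands for 1 founder cell, and no spread between replicates could be measured. The design asks how far a clone departs from the population it came from. DNA methylation files hold no expression markers with which the CD8+ label could be checked.

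CpG-dense DNA free of methylation is the textbook feature of CpG islands, which often lie at gene promoters. Elsewhere most CpGs in the mammalian genome are methylated. At each division the maintenance enzyme DNMT1 copies methylation from the parental to the new strand, while islands are kept open by the exclusion or removal of methylation, in which TET enzymes take part. A clone shows all copies of DNA that descend from the alleles of its founder, and a population shows a mix of many cell histories.

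The fragments held 172098 molecules on the even lines of the population, 410754 in clone 1 and 386773 in clone 2, with medians of 10, 23 and 21 molecules per fragment. A molecule carried a mean of 10.6, 10.6 and 10.7 calls, and 1.77, 1.35 and 1.84 reads. The label of unmethylated DNA held on the molecules that had not chosen the fragments. The mean level was 2.78% in the population, with 3.65% in clone 1 and 3.82% in clone 2, and the median level was 1.15%, 1.02% and 1.07%. In all 3 libraries 12240 fragments, or 71.4%, stayed under 5%.

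The clones were higher than the population on average, and the median difference over fragments was small. The mean difference was 0.869 percentage points in clone 1 and 1.03 in clone 2, against median differences of 0.0179 and 0.0904. Without the fragments that differed by 20 points or more, the mean difference was 0.408 and 0.585 points. Clone 1 was higher at 8622 fragments and lower at 7140, and clone 2 was higher at 8800 and lower at 6931. The clones share the population library in these comparisons. Fragments within 5 points of the population made up 86.8% in clone 1 and 86.0% in clone 2. At the far end, 244 fragments lay at 20% or more in the population, with 630 in clone 1 and 714 in clone 2. The rule kept only fragments under 20% on the odd lines of the population, and the part of this choice and of the lower depth in the population in these counts was not tested. Levels of 50% or more were measured at 9, 91 and 70 fragments, and of 80% or more at 1, 9 and 4. Of the fragments at 20% or more, 340 were so in both clones, which is 54.0% of those in clone 1 and 47.6% of those in clone 2. Clone 1 minus clone 2 was -0.166 points on average.

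**Figure D1:**
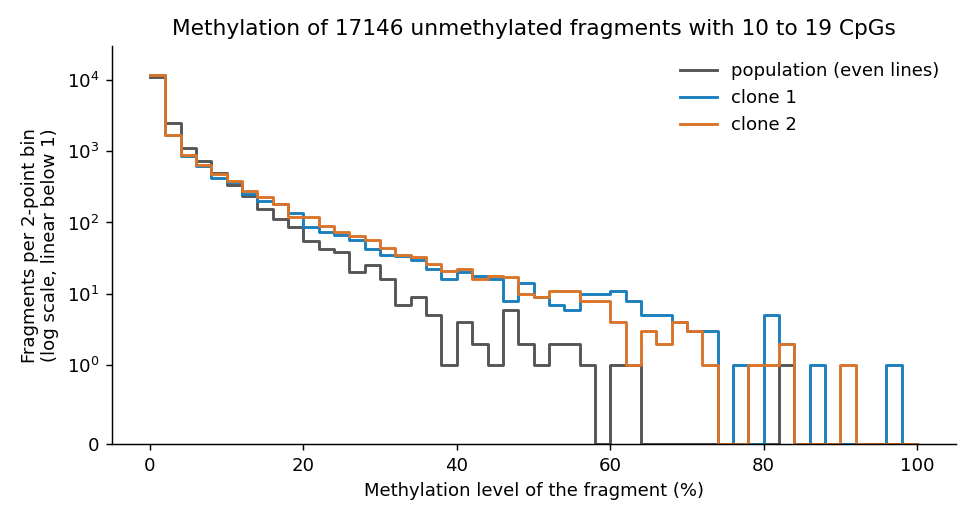
Number of fragments (vertical axis, log scale that is linear below 1) by methylation level in bins of 2 percentage points, for the even lines of the population, clone 1 and clone 2. The population has more fragments than the clones between 2 and 6%, and the clones extend further to the right, with 630 and 714 fragments at 20% or more against 244 in the population.

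The level on the odd lines of the population was followed in the other molecules across its whole range. At the 5438 fragments without a methylated call on the odd lines, the mean level was 0.908% on the even lines, 1.13% in clone 1 and 1.15% in clone 2. At 1758 fragments over 5 to 10% it was 6.80%, 9.05% and 9.56%. At the 1076 fragments over 10 and under 20% it was 13.5%, 18.5% and 18.98%, and there 357 fragments in clone 1 and 395 in clone 2 reached 20% or more, against 193 on the even lines. These 1076 fragments are 6.28% of the set and hold over 50% of all its fragments at 20% or more in each library. Fragments with no methylated call on the odd lines rarely reached 20%, at 1, 19 and 15 of 5438.

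Fragments with more CpGs had lower levels within the set. The 2456 fragments with 10 CpGs had a mean of 3.56% in the population, with 4.85% in clone 1 and 5.02% in clone 2. The 913 fragments with 19 CpGs had 2.15%, 2.57% and 2.68%. Fragments with 14 CpGs lay between, at 2.64%, 3.52% and 3.68%. The mean level of both clones was above that of the population at each of the 10 CpG numbers. The medians went mostly the other way. Clone 1 had a lower median than the population at each CpG number, with 1.25% against 1.52% at 10 CpGs. Clone 2 also had a lower median than the population, except at 12 CpGs, with 1.12% against 1.11%. The population had fewer molecules per fragment, and the part of depth in these medians was not tested.

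Most molecules carried no methylation, and what there was lay mainly on molecules with a few methylated CpGs. Among molecules with at least 8 observed CpGs, 81.7% (Wilson 95% interval 81.5 to 81.9) were free of methylated calls in the population, with 78.7% (78.6 to 78.9) in clone 1 and 77.8% (77.7 to 78.0) in clone 2. These intervals cover counting error only. Molecules with 1 methylated call came to 12.9%, 13.5% and 13.7%, the smallest ratio between clone and population among the classes with methylation. Molecules with 2 came to 3.17%, 4.04% and 4.34%, and those with 3 or more but at most 50% of their observed CpGs methylated to 1.87%, 2.97% and 3.40%. Mostly methylated molecules, with over 50% of observed CpGs methylated, made up 0.323% (0.295 to 0.354), 0.808% (0.778 to 0.838) and 0.748% (0.719 to 0.778). Molecules methylated at every observed CpG were rare, at 57 of 144892, 239 of 343894 and 148 of 325184. In the population, 45.4% of methylated calls were the only one on their molecule, against 34.7% in clone 1 and 33.6% in clone 2. Mostly methylated molecules held 8.92%, 16.5% and 14.2% of the methylated calls.

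**Figure D2:**
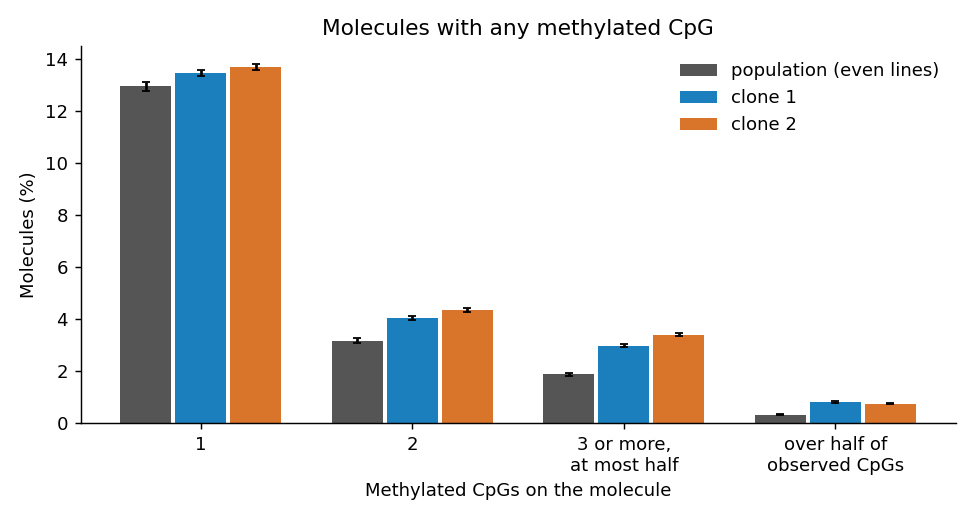
Share of molecules (vertical axis, percent) with 1, 2, or 3 or more methylated CpGs and with over 50% of observed CpGs methylated, among molecules with at least 8 observed CpGs. Bars are the even lines of the population, clone 1 and clone 2, and error bars are Wilson 95% intervals of the counts. The clones stand above the population in each class, by the smallest ratio at 1 methylated CpG.

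Methylated calls on the same molecule lay near each other. The CpG next to a methylated one was itself methylated in 20.3% of cases in the population, with 27.6% in clone 1 and 26.0% in clone 2. Next to an unmethylated CpG these shares were 2.03%, 2.54% and 2.70%. At a distance of 8 CpGs along the molecule the share beside a methylated CpG was 11.7%, 18.4% and 17.3%. The share was still falling there, and the share beside an unmethylated CpG was 2.19%, 2.71% and 2.86% at this distance.

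The mostly methylated molecules were gathered on few fragments. Counted over all molecules with a call, clone 1 had 4235 of them, on 995 fragments, and 123 fragments held at least 50% of them. Clone 2 had 3754 on 1073 fragments, with 141 fragments holding that share, and the population had 777 on 504, with 126. Both clones had such molecules at 474 fragments. Depth differs between the libraries, so the expected share of fragments with at least 1 such molecule among 5 drawn was computed exactly from the counts. It was 1.81% in the population, with 2.82% in clone 1 and 3.01% in clone 2.

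Whole fragments that rose against the population were few. The counts of mostly methylated and other molecules were compared with Fisher's exact test, two-sided. All molecules with a call entered these counts, also those with few observed CpGs. The p-values were adjusted by Benjamini-Hochberg over every fragment with 4 or more CpGs. Fragments were called at an adjusted p under 0.05 where the shares differed by 20 points or more. Such tests compare libraries, not conditions. In clone 1, 16 of the 17146 fragments were higher and 0 lower, against a background of 0.238% higher, 0.105% lower and 0.343% in either direction among the 141461 fragments tested. In clone 2, 8 were higher and 0 lower, against a background of 0.281% higher, 0.088% lower and 0.369% in either direction among 116987. At an unadjusted p under 0.05 there were 122 and 103 of the 17146 fragments in either direction. The share over all fragments at this threshold was not computed, and these counts add no called fragment. A fragment chosen as unmethylated has little room to fall, and the part of this choice in the direction was not tested. At the median depth of the set, a call against 0 of 10 population molecules needed 17 of 23 mostly methylated molecules in clone 1 or 16 of 21 in clone 2, and smaller changes could not be called. With all lines of the population in the test the counts were 61 and 42, but these lines include those that chose the fragments. No background was computed for this setting. On molecules with at least 2 reads, where only 1787 fragments in clone 1 and 4487 in clone 2 met the molecule minimums, 0 were called against the population.

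The called fragments were mostly methylated in the clone and often intermediate in the other clone. Fragment 1276599, with 15 CpGs, had 0 of 9 mostly methylated molecules in the population, with 28 of 29 in clone 1 but 3 of 19 in clone 2 (adjusted p 0.000263 for clone 1 against the population, Fisher's exact test). Fragment 681787, with 16 CpGs, had 0 of 11 in the population, with 18 of 20 in clone 1 and 13 of 17 in clone 2, and was called in both. Fragment 388551, with 10 CpGs, also stood high in both clones, with 22 of 30 and 22 of 27 against 0 of 12. The other leading fragments in clone 1 were 1377548, 1521671 and 1391017, with 15 of 15, 20 of 21 and 27 of 27 molecules. The population had 0 of 5, 0 of 9 and 1 of 10 there, at levels of 20.9%, 18.5% and 23.1%. In clone 2 the other leading fragments were 419170, 1314352 and 1099963, with 23 of 31, 17 of 20 and 18 of 26. The population had 0 of 9, 2 of 13 and 0 of 14 at these, at levels of 16.05%, 25.8% and 0.694%. Apart from 1099963, these other leading fragments were thus partly methylated in the population too. Over the 16 fragments called in clone 1 the share of mostly methylated molecules ran from 60% to 100% with a median of 87.0%, and the median in clone 2 was 30.1%. Over the 8 called in clone 2 it ran from 60% to 85% with a median of 74.6%, and the median in clone 1 was 29.1%.

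The clones were also compared directly, without the population. Of 17146 fragments 75 differed, or 0.437%, against a background of 2.46% of 129568 fragments. Clone 1 was higher at 38 and clone 2 at 37, against backgrounds of 1.13% and 1.33%. An unadjusted p under 0.05 was reached by 200 of the 17146, and the share over all fragments at this threshold was not computed. At the median depth a call between the clones needed 10 of 23 mostly methylated molecules against 0 of 21, a lower bar than against the population, so these counts are not on the same footing. With at least 2 reads per molecule 3 of the 2453 fragments still testable differed. When each fragment was represented by its CpG with the most calls, 416 of 16231 did. The share called over all fragments was not computed under these settings. In the clone with more methylation, the median share of mostly methylated molecules was 59.1% where clone 1 was higher and 57.1% where clone 2 was higher, with 20 and 17 fragments at 40 to 60% and only 5 and 1 at 90% or more. In the other clone, 22 of 38 and 26 of 37 had no such molecule. The population, not part of this test, had none at 21 and 17 of these fragments, on its smaller number of molecules.

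**Figure D3:**
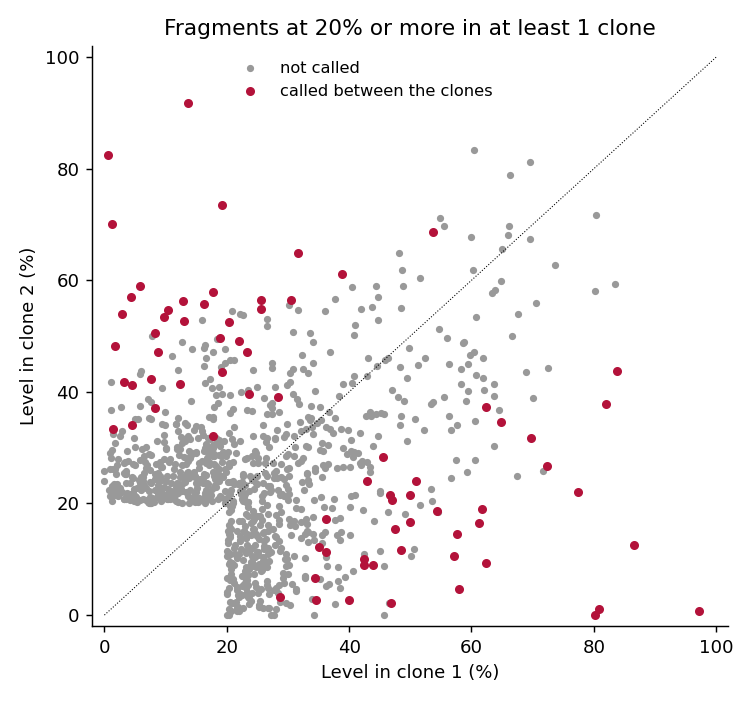
Level in clone 1 (horizontal axis, percent) and clone 2 (vertical axis, percent) of the 1004 fragments at 20% or more in at least 1 clone, which is why the lower left corner is empty. Red points are the 75 fragments called between the clones, which lie on both sides of the dotted line of equal levels.

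Some of the widest differences between the clones ran along most CpGs of a fragment, and others took in only some of them. The commonest molecule patterns of 4 fragments of the first kind, chosen after their values were seen, are printed here because they show the states CpG by CpG, with x for a methylated, o for an unmethylated and a dash for an unobserved CpG, in the order along the fragment. For fragment 1002274, with 13 CpGs, they are:
clone 1, 6 of 22 molecules: xxxxxxxxxxxx-
clone 2, 9 of 27 molecules: oooooooooooo-
For fragment 418992, with 14 CpGs, the commonest patterns are:
population, 5 of 11 molecules: ooooo---ooooo-
clone 1, 3 of 16 molecules: oxxxx---xxxxx-
clone 2, 4 of 13 molecules: ooooo---ooooo-
For fragment 1099963, with 16 CpGs, they are:
population, 4 of 14 molecules: oooooo-oooooooo-
clone 1, 6 of 17 molecules: oooooo-oooooooo-
clone 2, 5 of 26 molecules: xxxxxx-xxoxxxxx-
For fragment 1428557, with 15 CpGs, they are:
population, 3 of 18 molecules: -oooooooooooooo
clone 2, 8 of 32 molecules: -xxxxxxxxxxxxxx

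Fragment 1002274 was mostly methylated on 22 of 22 molecules in clone 1, 0 of 27 in clone 2 and 1 of 5 in the population (adjusted p 4.49e-11, Fisher's exact test between the clones). Fragment 418992 had 14 of 16, 0 of 13 and 0 of 11, and its first CpG stayed unmethylated in clone 1 on 7 of 8 molecules while the next was methylated on 12 of 13. Fragment 1099963 had 0 of 17 in clone 1, 18 of 26 in clone 2 and 0 of 14 in the population. Its CpG 10 was methylated on 1 of 16 molecules of clone 2, between neighbours at 12 of 17 and 12 of 17. Fragment 1428557 had 0 of 20, 26 of 32 and 5 of 18, so that the population held both states. Of the other named fragments, 268230, 1391017 and 470184 were higher in clone 1, with 31 of 32, 27 of 27 and 22 of 27 molecules against 0 of 25, 4 of 22 and 0 of 27. Fragments 1199547, 1182228 and 1523105 were higher in clone 2, with 21 of 21, 7 of 10 and 11 of 15 against 2 of 12, 0 of 20 and 1 of 25. Differences within some of these fragments were partial. In fragment 470184 CpGs 11, 12 and 14 had no methylated call in either clone, and clone 2 had 13 of 24 at CpG 3. In fragment 1523105 the level was 49.6% in clone 2 against 18.9% in clone 1, and in fragment 1182228 CpG 12 had no methylated call in either clone.

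**Figure D4:**
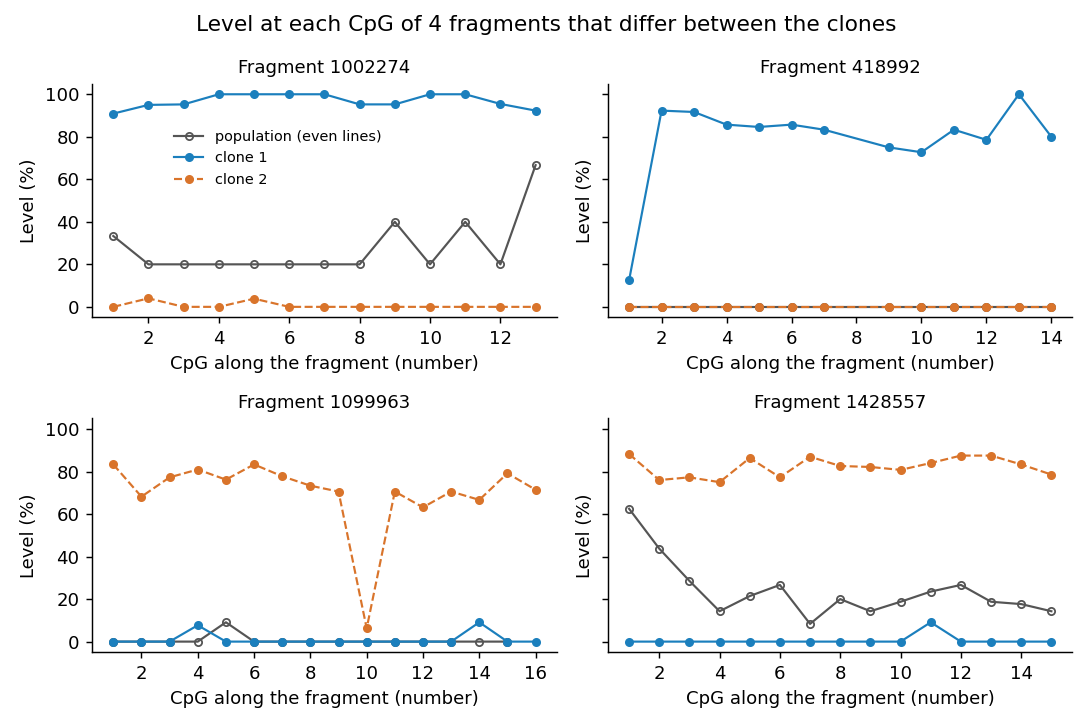
Level (vertical axis, percent) at each CpG along 4 fragments called between the clones, for CpGs with at least 2 calls, in the even lines of the population, clone 1 and clone 2. In fragment 418992 the population and clone 2 coincide at 0, and the first CpG stays low in clone 1. In fragment 1099963 CpG 10 stays low within the methylated stretch of clone 2.

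Single CpGs differed between the clones far more often than whole fragments. Each CpG was tested on its methylated and unmethylated molecules with the same thresholds over all CpGs. Of 178898 CpGs tested in the set, which are 76.6% of its CpGs, 4970 differed between the clones, or 2.78%, against a background of 5.39%. Clone 1 was higher at 2418 and clone 2 at 2552, against backgrounds of 2.56% and 2.83%. They lay on 2569 fragments, 15.0% of the set, and 1335 of these fragments had only 1 such CpG while 139 had 5 or more. The share of fragments was similar, at 14.0%, among those with 10 to 19 CpGs over 80% on the odd lines. Among unmethylated fragments it was 19.2% with 5 to 9 CpGs and 9.83% with 20 or more. Only 384 of the 4970 CpGs lay on the 75 fragments that were called as a whole. Against the population, 348 CpGs were called in clone 1, or 0.195% of those tested, with a background of 0.543%. Of these 340 were higher and 8 lower, where the background was 0.317% and 0.226%. In clone 2 there were 296, or 0.170%, with a background of 0.503%. Of these 290 were higher and 6 lower, where the background was 0.331% and 0.172%.

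CpGs that differed between the clones were often near 50% in one and at 0 in the other. Where clone 1 was higher, its median level was 55.6%, 54.5% of the CpGs stood at 40 to 60% and 13.6% over 80%. In clone 2 55.5% of these CpGs had no methylated molecule, at a median of 24 calls. Where clone 2 was higher, its median was 55.0%, with 56.9% of CpGs at 40 to 60% and 11.4% over 80%, and 56.3% had none in clone 1. In the population 78.3% and 79.6% of these CpGs were under 20%, with means of 10.7% and 10.8%. The higher clone stood at 20 to 40% at 219 and 210 of the called CpGs. At these depths the test favours wide differences, so CpGs at 20 to 40% are hard to call, and the fragments were chosen as unmethylated. The part of the test and of the choice in these levels was not tested.

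Called CpGs of 1 fragment did not always go in the same direction. Of the 1234 fragments with at least 2 called CpGs, 663 had all of them higher in the same clone and 571 had some higher in clone 1 and others in clone 2. Called CpGs directly next to each other shared the direction in 783 of 961 pairs and opposed it in 178.

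The clearest single-CpG differences are given from fragments with only 1 called CpG, chosen after their values were seen. In fragment 1478477 the CpG at position 4 of 12, counted along the fragment from its first CpG, was methylated on 21 of 21 molecules in clone 1, 0 of 16 in clone 2 and 1 of 6 in the population (adjusted p 3.28e-08, Fisher's exact test between the clones). The plus strand gave 10 of 10 and the minus strand 11 of 11 in clone 1. The other CpGs of this fragment stood at 10.6% in clone 1, 10.9% in clone 2 and 5.77% in the population. In fragment 443751 the CpG at position 7 of 10 had 23 of 23, 0 of 15 and 1 of 10, with the other CpGs at 17.9%, 10.9% and 6.25%. In fragment 1304693 the CpG at position 12 of 13 went the other way, with 0 of 18 in clone 1, 15 of 15 in clone 2 and 2 of 6 in the population.

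The clones also held CpGs that were almost fully methylated inside this unmethylated DNA. Among 167106 CpGs with at least 5 calls in the population and 10 in each clone, 499 were over 80% in clone 1 and 482 in clone 2, against 26 in the population. With at least 10 calls in all 3 libraries, at 68348 CpGs, the counts were 171, 164 and 4. Those in clone 1 lay on 315 fragments and those in clone 2 on 351, and 236 and 275 of these fragments had a single such CpG. The CpGs over 80% in a clone were raised on average in the other libraries too, although many were under 20% there. Over all 167106 CpGs the mean level was only 2.54% for the population, 3.26% for clone 1 and 3.42% for clone 2. At the 499 CpGs over 80% in clone 1 the mean was 38.5% in clone 2 and 23.7% in the population, and 208 and 245 of them were under 20%. At the 482 in clone 2 the mean was 40.1% in clone 1 and 25.5% in the population, with 190 and 232 under 20%. In both clones 79 CpGs were over 80%, which is 15.8% of those in clone 1 and 16.4% of those in clone 2.

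Levels around these CpGs fell off along the fragment. The next CpGs on either side of those in clone 1 had a level of 45.2% in clone 1, 25.7% in clone 2 and 17.0% in the population, and at a distance of 6 CpGs these were 33.5%, 21.2% and 12.0%. For clone 2 the next CpGs had 37.7% in clone 2, 27.7% in clone 1 and 16.6% in the population. The choice was made on the clone's own molecules, many of which also cover the next CpGs.

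Residual methylation favoured particular CpGs, also across libraries. In each fragment the CpG with the most methylated calls on the odd lines was picked and then measured on molecules that had not picked it. At 1323 fragments with 3 or more methylated calls at that CpG, its level was 19.4% (Wilson 95% interval 18.7 to 20.1) on the even lines, 24.3% (23.9 to 24.8) in clone 1 and 26.0% (25.5 to 26.5) in clone 2. The other CpGs of the same fragments stood at 9.03%, 11.9% and 12.5%. With 2 methylated calls, at 2019 fragments, the picked CpG had 8.36%, 11.05% and 11.4% against 4.79%, 6.997% and 7.07%. A single methylated call on the odd lines, at 7816 fragments, marked a CpG at 2.11%, 2.89% and 3.01%, against 1.62%, 2.21% and 2.31% at the others. CpGs over 50% in a clone made up 22.8% and 23.0% of the picked CpGs with 3 or more calls and at least 5 calls in the library measured, against 7.07% on the even lines.

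Levels were higher towards the ends of the fragments. The first and last CpGs, which belong to the cut sites, stood at 3.17% in the population, with 4.41% in clone 1 and 4.36% in clone 2. CpGs ninth from the nearer end stood at 2.00%, 2.50% and 2.66%, and they exist only in the fragments with the most CpGs, which were lower on average. Plus and minus strands gave 2.56% and 2.55% in the population, 3.45% and 3.50% in clone 1 and 3.59% and 3.61% in clone 2.

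Fragments with neighbouring numbers shared the unmethylated state. No source states that the numbers follow the genome. If they do, the last CpG of a fragment on the minus strand and the first CpG of the next number on the plus strand lie in the same cut site, and over all fragments these differed by a mean of 5.20 points in clone 1 (3922 pairs) and 5.90 in clone 2 (2986 pairs), against 12.9 and 12.8 for the next number but one. Among the 3678 fragments numbered directly before a member and measured in all libraries, the mean level was 3.93% in the population, with 5.02% in clone 1 and 5.21% in clone 2. The 3828 numbered directly after had 4.15%, 5.23% and 5.47%. At 5 numbers before, the means were 24.6%, 26.3% and 26.6%, and at 5 after 24.4%, 26.0% and 26.2%, against 67.3%, 68.3% and 69.0% over all 162634 measured fragments. The neighbours held more CpGs, with medians of 12 directly before, 11 directly after and 9 at 5 numbers away, against 5 over all. Of the measured fragments directly before and after, 96.0% and 95.4% were under 20% in the population, and 50.7% and 48.7% were members themselves. In all, 3509 members, or 20.5%, had a member next to them, in runs of at most 5. Only 21.5% and 22.3% of members had a measured fragment directly before and after them, which limits this share and the length of the runs.

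**Figure D5:**
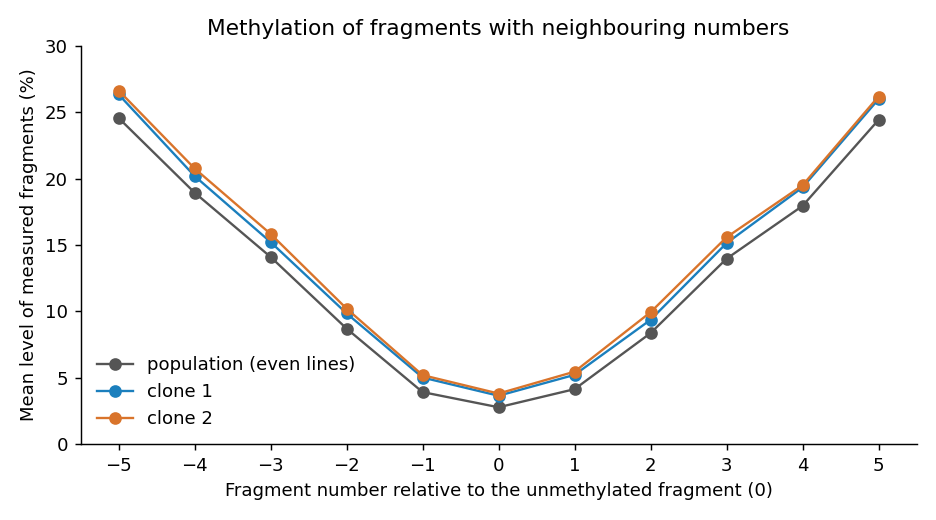
Mean methylation level (vertical axis, percent) of the measured fragments at 1 to 5 numbers before and after the unmethylated fragments, which stand at 0 on the horizontal axis. The level rises from 3.93% and 4.15% beside them to over 24% at 5 numbers away in the population, and the clones lie above the population at each place.

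Neighbours at 20 to 80% went with higher levels inside the fragment than neighbours under 20%. Where the directly neighbouring fragment stood at 20 to 80% in the population, at 320 sides, the CpG at that side was at 16.3% in the population, with 26.0% in clone 1 and 24.2% in clone 2, and CpG 10 counted from that side at 10.5%, 17.2% and 15.9%. Where the neighbour was under 20%, at 7180 sides, these were 2.79%, 3.70% and 3.76% at the side and 2.59%, 3.27% and 3.63% at CpG 10. Neighbours over 80% were measured at only 6 sides.

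Fragments that differed between the clones tended to have neighbours that differed in the same direction. At 18 measured neighbours of the fragments higher in clone 1, clone 1 was above clone 2 by a mean of 32.2 points, and by 20 points or more at 13. At 15 neighbours of those higher in clone 2 the excess of clone 2 was 24.4 points, with 20 or more at 8. No neighbour differed by 20 points or more the other way. Some of these neighbours were called fragments themselves and so counted for each other, as 418991 and 418992 for clone 1 and 1462459 and 1462460 for clone 2. Over the 7506 measured neighbours of all members, 3.44% differed by 20 points or more in either direction. A neighbour can share the cut-site CpG, and it was not tested whether the molecules of the neighbours are independent.

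Unmethylated fragments of other CpG numbers are given beside these for scale, with no test of the difference. The 11976 fragments with 5 to 9 CpGs under the same rule had mean levels of 4.95%, 6.93% and 7.62% in the population, clone 1 and clone 2, and 163 of them, or 1.36%, differed between the clones. The 4141 fragments with 20 or more CpGs had 1.95%, 2.19% and 2.42%, and 3 differed. CpGs called between the clones came to 5.67% of those tested in the former and 1.32% in the latter, around the 2.78% found with 10 to 19 CpGs. Fragments with 10 to 19 CpGs at 20 to 80% on the odd lines numbered 1850, and 220 of them, or 11.9%, differed between the clones.

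The rule's threshold cut through a continuous range of levels. The nearest fragments inside it were 1389121 at 19.9% on the odd lines, with 21.6%, 25.1% and 28.1% in the population, clone 1 and clone 2, and 466696 at 19.8%, with 10.9%, 3.09% and 5.42%. Just outside, both at 20% on the odd lines, fragment 1207380 had 23.5%, 29.6% and 50.9%, and fragment 787783 had 3.16%, 11.8% and 14.7%.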

How the data were processed

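The authors deposited 1 file per library without a header. Per the labels, DNA was cut with MspI, ligated to plasmids with molecular tags, bisulfite converted and amplified. Bismark and the build mm9 are named in the submitters' processing notes, whereas the Bismark version, read filters and pooling of replicates were not given in the sources used. The deposited values are a call string for each fragment, strand and tag, a count of reads behind it, not normalized, and a further whole number of unstated meaning, which was not used. Each line was taken as 1 molecule. The libraries listed 8463942, 11969176 and 8977287 molecules (population, clone 1, clone 2), of which 5588357, 7013054 and 5567534 had a CpG call.

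Levels, molecule classes and Fisher's exact tests were computed in Python 3.11.15 with numpy 2.4.6, pandas 2.3.3 and numba 0.67.0, and Wilson intervals with scipy 1.17.1. Tests covered fragments with at least 4 CpGs, or all CpGs, with at least 5 population and 10 clone molecules (10 in each clone between clones). The test was checked on simulated data. Separate molecules can share a tag on deep strands, and single-read molecules can carry tag errors, so alternatives left out each. Named fragments are the 5 called ones per comparison and direction with the widest difference, and the 2 on each side of the threshold. The fragments and analyses were chosen with earlier results of these data known. The files tie no fragment to a gene or sequence here, so no gene list was used.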

Additional observations from a re-analysis of the deposited data

Results flagged for a closer look

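The libraries of the clones differed from each other in the direct test between them at 75 fragments and 4970 CpGs of the set. Among the named fragments, the share of mostly methylated molecules in clone 1 minus that in clone 2 was 100 percentage points at fragment 1002274, 96.9 at 268230, 87.5 at 418992, 81.8 at 1391017 and 81.5 at 470184. It was -83.3 at fragment 1199547, -81.25 at 1428557, -70 at 1182228, -69.3 at 1523105 and -69.2 at 1099963. Each clone is 1 founder and 1 pooled library, so founder, culture and library cannot be told apart.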

How the results depend on the processing

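Of 116 values under other settings, 45 stayed within 1.5 times the count or within the counting interval, 71 moved and no mean difference changed sign. Counting intervals are narrow here. The causes were not tested, except that settings with fewer molecules also have less power by construction. Only 1616 fragments met the minimums in all libraries with at least 2 reads per molecule, and 8494 and 8534 were testable between the clones on the plus and the minus strand alone. No paired analysis was possible because both replicates of each clone share a file with no mark to separate them, and for the same reason leaving out replicates was not run.

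Mean levels (population, clone 1, clone 2) were 2.97%, 3.62% and 3.74% on molecules with at least 2 reads, 2.75%, 3.50% and 3.69% with at least 10 population and 20 clone molecules, and 2.06%, 2.64% and 2.78% with odd lines under 10%. They were 2.82%, 3.58% and 3.73% on the plus strand, 2.94%, 3.76% and 3.95% on the minus strand, 2.73%, 3.59% and 3.78% without the first and last CpG, and 2.55%, 3.47% and 3.60% with calls pooled over fragments. With even lines choosing and odd lines measuring, the population had 2.74% and clone 1 3.62%.

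The excess over the population, for clone 1 and clone 2, was 0.645 and 0.772 points with at least 2 reads, 0.750 and 0.944 with the higher molecule minimums, 0.586 and 0.727 with odd lines under 10%, 0.755 and 0.908 on the plus strand and 0.822 and 1.00 on the minus strand. It was 0.919 for clone 1 with pooled calls and 1.07 for clone 2 with the lines exchanged. Clone 1 minus clone 2 was -0.126 with at least 2 reads, -0.194 with the higher minimums, -0.140 with odd lines under 10%, -0.195 with the lines exchanged and -0.126 with pooled calls. Molecules free of methylation made up 84.1%, 81.6% and 80.8% with odd lines under 10%, 83.0%, 80.2% and 79.2% without the first and last CpG, and 82.1%, 79.0% and 78.3% with 5 observed CpGs as the minimum. Without strands over 25 molecules clone 1 had 78.9%.

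Counts of called fragments (clone 1 against population, clone 2 against population, clone 1 against clone 2) were 0, 0 and 3 with at least 2 reads, 6, 3 and 32 with odd lines under 10%, 0, 0 and 15 on the plus strand, 1, 0 and 10 on the minus strand, and 50, 39 and 416 by the deepest single CpG. With all population lines they were 61 and 42 against the population. The share called over all fragments was computed only at the settings of the report, so these counts have no background beside them. Counts of called CpGs were 0, 7 and 251 with at least 2 reads, and 3197 between the clones with the higher molecule minimums. Of the CpGs called between the clones, 2418 of 4970 were higher in clone 1 in the report and 135 of 251 with at least 2 reads. With the higher molecule minimums it was 1584 of 3197. These splits are close to even, and the difference between them was not tested.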
